A study of Homo sapiens with 8 samples.

Results

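The genes described here are CDK9, CDK12 and CDK13, the kinases that carry RNA polymerase II through elongation, together with their cyclins CCNT1, CCNT2 and CCNK and the 7SK components HEXIM1, LARP7 and MEPCE. Members were all probe sets of the value table whose only gene symbol in the platform annotation was one of these 9 genes, which gave 29 of 49495 probe sets. CDK12 had 6 of them, HEXIM1 and LARP7 had 5 each, CDK9, CCNT2 and CDK13 had 3 each, CCNK had 2, and CCNT1 and MEPCE had 1 each. The cells were SK-MEL-5, a long-established line from a human melanoma, and their RNA was read on 8 Affymetrix arrays, 2 in each of 4 groups. The drug arrays were cells given THZ1 at 250 nM for 6 h and cells given its solvent DMSO, which the labels list at 25 uM in both groups. The siRNA arrays were cells in which MITF, the master regulator of melanocytes, was targeted by siRNA (siMITF), and cells with a control siRNA (siCtrl). Time after siRNA and the length of the DMSO treatment are not given in the sources used here. By its title the study concerns CDK7 inhibition and lineage genes in melanoma, and THZ1 is a covalent CDK7 inhibitor that is also known to bind CDK12 and CDK13.

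After initiation, RNA polymerase II pauses a short way into most genes and waits for a signal to go on. That signal is P-TEFb, the kinase CDK9 bound to cyclin T1 or cyclin T2, which phosphorylates the polymerase and the factors that hold it. Much of the cell's P-TEFb is kept inactive on the 7SK small nuclear RNA, where HEXIM1 blocks the kinase, LARP7 holds the 3' end of 7SK and MEPCE caps its 5' end. CDK12 and CDK13, both paired with cyclin K, act further into the gene, and CDK12 is known for keeping long DNA repair genes expressed.

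Promoter windows were read for all 9 genes from RefSeq (GRCh38.p14), as the 250 bases upstream of each of 14 listed start sites. The windows printed are those of the 5 members that passed the test with THZ1 on at least 1 scale, and that of CCNT1, which holds the letters CACGTG, the E-box form that MITF is known to bind. Capitals mark matches on either strand to 5 motifs. They are the E-box CACGTG, the CCAAT box, the GC box with the letters GGGCGG, the TATA box with the letters TATAAA and the cAMP response element with the letters TGACGTCA. Matches did not overlap in the printed windows. Each window runs 5' to 3' on the gene's strand and ends at the base before the start site. They are MEPCE at its first listed start (chr7:100428540-100428789, plus strand), LARP7 at its first listed start (chr4:112636893-112637142, plus), HEXIM1 (chr17:45148225-45148474, plus), CCNT2 (chr2:134918572-134918821, plus), CDK9 (chr9:127785784-127786033, plus) and CCNT1 at its first listed start (chr12:48716708-48716957, minus).
MEPCE: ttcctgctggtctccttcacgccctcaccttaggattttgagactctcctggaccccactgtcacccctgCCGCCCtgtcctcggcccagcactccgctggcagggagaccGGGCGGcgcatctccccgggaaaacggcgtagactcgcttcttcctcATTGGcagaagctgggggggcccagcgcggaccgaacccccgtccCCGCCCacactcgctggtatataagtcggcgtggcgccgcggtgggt
LARP7: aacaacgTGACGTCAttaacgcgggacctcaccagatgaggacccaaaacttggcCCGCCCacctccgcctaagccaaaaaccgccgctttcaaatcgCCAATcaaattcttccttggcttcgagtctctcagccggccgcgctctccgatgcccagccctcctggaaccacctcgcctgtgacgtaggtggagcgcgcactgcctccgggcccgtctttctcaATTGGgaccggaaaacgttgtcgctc
HEXIM1: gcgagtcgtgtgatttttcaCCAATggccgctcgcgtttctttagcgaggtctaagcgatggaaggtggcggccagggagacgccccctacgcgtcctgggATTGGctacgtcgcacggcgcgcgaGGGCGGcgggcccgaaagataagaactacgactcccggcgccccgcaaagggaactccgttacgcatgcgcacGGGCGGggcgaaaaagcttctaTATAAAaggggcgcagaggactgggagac
CCNT2: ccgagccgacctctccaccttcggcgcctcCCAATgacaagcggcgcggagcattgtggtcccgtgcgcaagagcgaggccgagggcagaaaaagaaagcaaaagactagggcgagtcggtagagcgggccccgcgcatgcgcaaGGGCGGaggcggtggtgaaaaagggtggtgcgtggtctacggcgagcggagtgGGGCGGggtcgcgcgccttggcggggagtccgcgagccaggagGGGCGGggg
CDK9: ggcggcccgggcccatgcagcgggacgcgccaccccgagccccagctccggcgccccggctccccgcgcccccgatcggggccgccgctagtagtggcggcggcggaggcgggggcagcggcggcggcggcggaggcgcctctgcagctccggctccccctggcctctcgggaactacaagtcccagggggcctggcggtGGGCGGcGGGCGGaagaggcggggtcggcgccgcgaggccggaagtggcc
CCNT1: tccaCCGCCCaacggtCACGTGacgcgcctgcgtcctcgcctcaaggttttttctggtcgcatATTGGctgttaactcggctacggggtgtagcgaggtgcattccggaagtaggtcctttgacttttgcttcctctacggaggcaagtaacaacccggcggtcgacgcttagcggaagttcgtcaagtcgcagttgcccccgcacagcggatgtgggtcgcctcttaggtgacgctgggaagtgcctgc

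Among the 14 windows, the GC box was found in 10 windows of 8 genes and CCAAT in 6 windows of 6 genes. Of all 35116 promoter windows of this length, 42.6% held the GC box and 32% held CCAAT. The E-box was found in 2 windows, 234 bases upstream of the first CCNT1 start and 124 bases upstream of the second MEPCE start, against 6.34% of all windows. HEXIM1 was the only member with TATAAA, 29 bases upstream of its start (10.7% of all windows), and LARP7 the only one with TGACGTCA, 243 bases upstream (1.65% of all windows). These matches describe letters in a window and were chosen after the windows were read; no binding was measured.

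All values come from 1 kind of measurement, a MAS5 signal per probe set on a linear scale that the submitters normalized to cell number. Differences on log2(signal + 16) of these deposited signals are called per cell below. In bulk samples, fewer cells of a type and less RNA per cell cannot be told apart. The arrays differed by offsets shared by most genes, so the same differences were also taken after each array was centred on its tested genes, and these are called relative. The median tested gene changed by -0.16 per cell with THZ1 and by -0.63 with siMITF. The 2 arrays of a group correlated at r = 0.994 to 0.995. The median signal of the 100 ERCC spike-in probe sets was 48.0 to 53.9 on the drug arrays and 27.6 to 30.7 on the siRNA arrays, so levels were not compared between the sets. MITF itself had signals of 3436 and 3936 in the siCtrl group against 1747 and 1168 in the siMITF group, a fall of 1.35 per cell (limma, SE 0.25, adjusted p = 1.62e-06). All 6 melanocyte markers with a probe set were above the detection filter, as were 1 of 4 keratinocyte, 2 of 5 fibroblast and 0 of 4 leukocyte markers. The summed fibroblast marker signal was 2325 to 2792 with DMSO, 2613 to 3393 with THZ1, 1499 to 1818 with siCtrl and 714 to 935 with siMITF. DCN and LUM made up the detected fibroblast markers, while COL1A1, COL1A2 and COL3A1, which define the cell type, were below the filter. Relative to the median gene, both DCN and LUM passed as higher with THZ1. The part of these markers in the member results was not tested.

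The brightest probe set of a gene stands for it, and all 9 members passed the filter at a signal of 39.2, as did 25 of the 29 probe sets. The probe sets below it were 2 of CCNT2, 1 of CDK12 and 1 of CDK13. Signals of different genes are not set against each other, because probe sets differ in brightness.

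**Figure D1:**
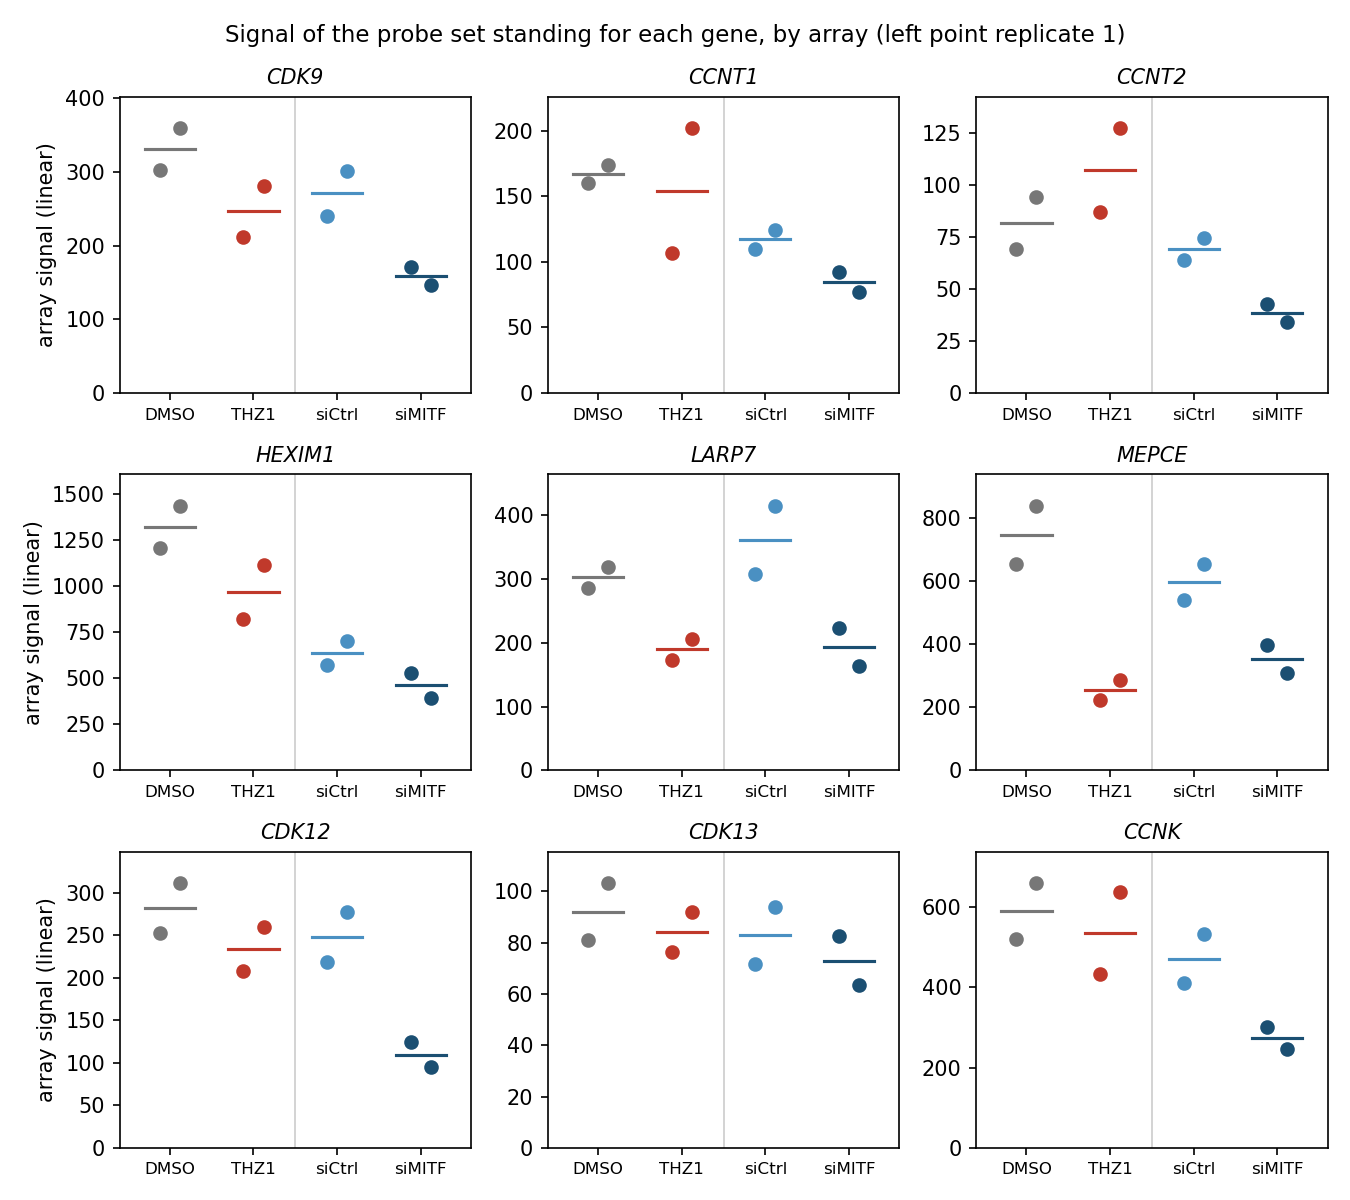
Array signals (linear axis from 0, normalized to cell number) of the 9 member genes, 1 panel per gene, with a point for each array in the DMSO, THZ1, siCtrl and siMITF groups and a line at the group mean. MEPCE shows the widest gap between the DMSO arrays (653 and 838) and the THZ1 arrays (222 and 287), while for CCNT1 the THZ1 arrays (107 and 202) lie on both sides of the DMSO arrays (159.9 and 174).

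With THZ1, MEPCE fell the most of the members, LARP7, CDK9 and HEXIM1 on its brightest probe set fell by less against the median gene, CCNT2 was the only member that rose against the median gene, and CDK12, CDK13 and CCNK did not pass the test on either scale. MEPCE, the enzyme that caps 7SK RNA, had signals of 653 and 838 with DMSO and of 222 and 287 with THZ1. Both treated arrays lay far below both controls. MEPCE fell by 1.49 per cell (SE 0.25, 95% interval -1.98 to -1.01, limma adjusted p = 2.67e-07), a 2.82-fold lower value. Among 11947 tested genes, 49 fell further, as MEPCE ranked 50 from the lowest. Relative to the median gene it fell by 1.30 (SE 0.070, adjusted p = 2.84e-06). With each gene's own variance in place of limma's shared one, the relative call stayed (adjusted p = 0.00212). Per cell that test called 0 of the 11947 genes, so it says nothing of MEPCE in particular, whose adjusted p of 0.268 was the lowest value of any gene.

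LARP7, the protein that protects the 3' end of 7SK, had signals of 286 and 318 with DMSO and of 173 and 206 with THZ1. The groups did not overlap. The per-cell change was -0.63 (SE 0.25, adjusted p = 0.0815) and did not pass the test, whereas the relative change was -0.43 (SE 0.096, adjusted p = 0.00626) and did. All 5 LARP7 probe sets were lower on the relative scale, by -0.27 to -0.60, and each passed in the fit over probe sets. Per cell, 2 of the 5 passed, 11719694_a_at at -0.80 (adjusted p = 0.0170) and 11750403_a_at at -0.79 (adjusted p = 0.0190), and LARP7 passed when its probe sets were averaged (-0.67, adjusted p = 0.0295). The gene-level relative call was lost with each gene's own variance (adjusted p = 0.0587) and without THZ1 replicate 2 (adjusted p = 0.0504).

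HEXIM1, the inhibitor of the 7SK-bound kinase, had signals of 1212 and 1439 with DMSO and of 825 and 1116 with THZ1 on its brightest probe set, 11721004_x_at. Its per-cell change of -0.45 (SE 0.25, adjusted p = 0.304) did not pass, and its relative change of -0.25 (SE 0.074, adjusted p = 0.0216) did. The other HEXIM1 probe sets did not give 1 direction. Probe set 11721003_at had a relative change of -0.17 (adjusted p = 0.0827). Probe sets 11721001_at and 11721002_s_at rose by 0.36 (adjusted p = 0.0206) and 0.32 (adjusted p = 0.00832), and 11721000_at had 0.23 (adjusted p = 0.0850). On 11721002_s_at the relative log2 level was 7.84 on both DMSO arrays, and with THZ1 it was 8.20 and 8.13. Averaging the 5 probe sets gave a HEXIM1 change of 0.06 (adjusted p = 0.489), so the direction for this gene depends on the probe set read. With no filter the call on the brightest probe set was lost as well (adjusted p = 0.0994), and it was made in 4 of 8 fits that left out 1 array, with adjusted p from 0.0232 to 0.111. Where the probe sets lie along the transcript was not analysed here.

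**Figure D2:**
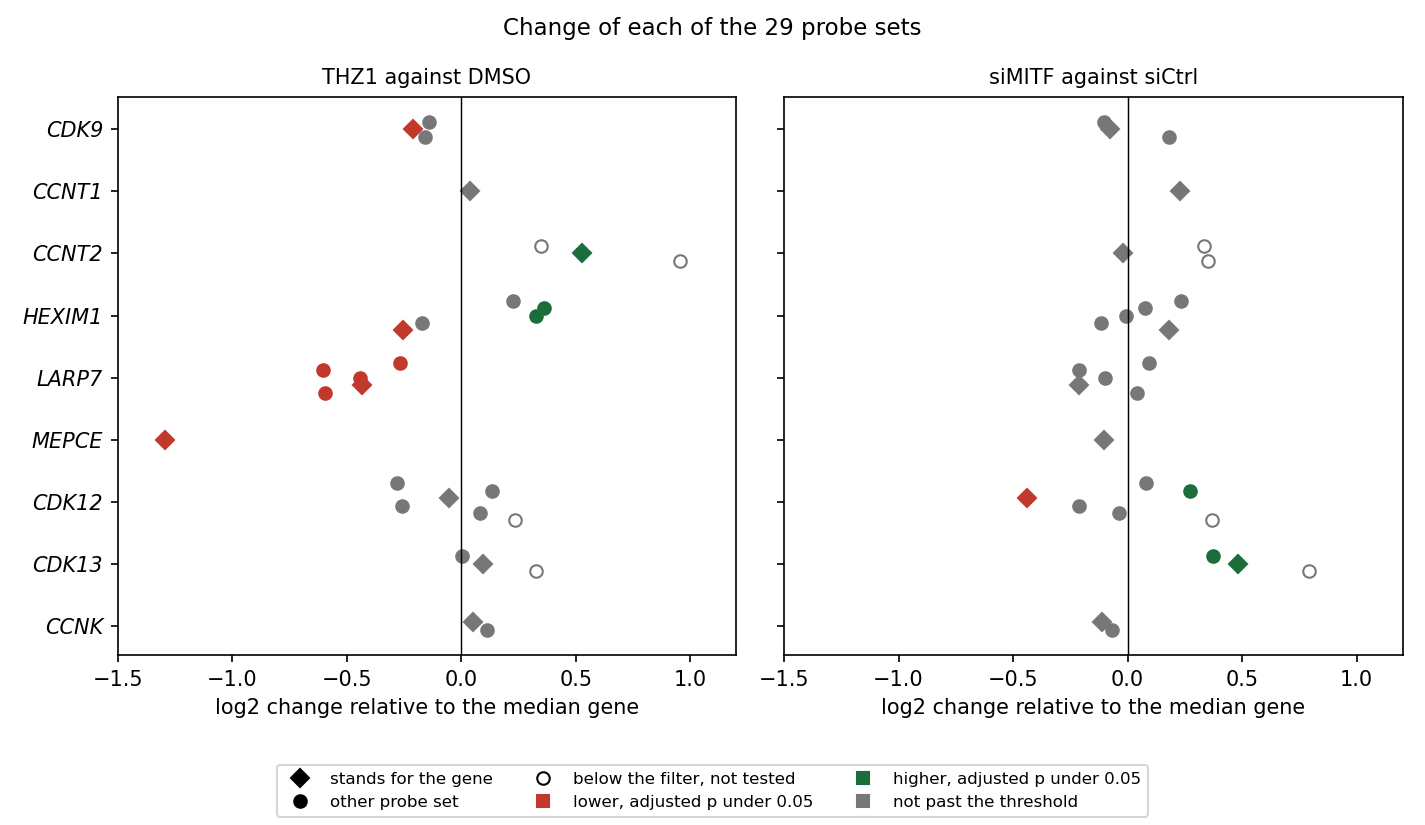
Relative log2 change of each of the 29 member probe sets, grouped by gene, for THZ1 against DMSO and for siMITF against siCtrl, with a diamond for the probe set that stands for the gene, open points for those not tested, and red or green for those that passed as lower or higher. The 5 LARP7 probe sets lie together at -0.27 to -0.60 with THZ1, while the 5 HEXIM1 probe sets spread from -0.25 to 0.36.

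Of the P-TEFb subunits, the kinase was slightly lower and the cyclins differed from each other. CDK9 had signals of 302 and 359 with DMSO and of 211 and 282 with THZ1. Both treated arrays were below both controls. The per-cell change was -0.41 (SE 0.25, adjusted p = 0.394), and against the median gene CDK9 fell by 0.21 (SE 0.071, adjusted p = 0.0402). This small fall was called in 3 of 8 fits that left out 1 array, with adjusted p from 0.0478 to 0.181, and was lost with a pseudocount of 64 (adjusted p = 0.0700), with no filter (adjusted p = 0.147) and with quantile normalization (adjusted p = 0.155). The other CDK9 probe sets had relative changes of -0.14 and -0.16 and neither passed.

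Cyclin T1, the main partner of CDK9, had CCNT1 signals of 159.9 and 174 with DMSO and of 107 and 202 with THZ1. The THZ1 arrays lay on both sides of the controls. The changes were -0.16 per cell (SE 0.25, adjusted p = 0.920) and 0.04 relative (SE 0.13, 95% interval -0.24 to 0.32, adjusted p = 0.826). Without THZ1 replicate 2 the relative change was -0.17, and without THZ1 replicate 1 it was 0.25.

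Cyclin T2, the alternative partner, had CCNT2 signals of 69.0 and 94.2 with DMSO and of 86.9 and 127 with THZ1. The signals overlapped, but after centring the log2 levels were 6.20 and 6.27 with DMSO and 6.72 and 6.80 with THZ1, with a clear gap. The per-cell change was 0.33 (SE 0.25, adjusted p = 0.586). The relative change was a rise of 0.53 (SE 0.073, 95% interval 0.36 to 0.69, adjusted p = 4.39e-04), higher than in 99.2% of tested genes, and it was called in all 8 fits that left out 1 array. The remaining CCNT2 probe sets were below the filter and not tested. Their signals on 11737161_a_at were 28.6 and 33.5 with DMSO and 57.9 and 69.3 with THZ1, and on 11726081_a_at their relative change was 0.35.

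The CDK12 and CDK13 group, the second set of elongation kinases, did not pass the test in either direction with THZ1. CDK12 had signals of 253 and 311 with DMSO and of 208 and 260.0 with THZ1, a per-cell change of -0.25 (SE 0.25, adjusted p = 0.764) and a relative change of -0.06 (95% interval -0.22 to 0.11, adjusted p = 0.581). CDK13 had signals of 81.0 and 103 with DMSO and of 76.5 and 92.1 with THZ1, with a per-cell change of -0.10 (adjusted p = 0.965) and a relative change of 0.10 (95% interval -0.08 to 0.27, adjusted p = 0.369). CCNK, which encodes the cyclin shared by both kinases, had signals of 521 and 659.9 with DMSO and of 434 and 638 with THZ1, with a per-cell change of -0.15 (adjusted p = 0.931) and a relative change of 0.05 (95% interval -0.12 to 0.22, adjusted p = 0.645). The groups of all 3 genes overlapped in signal. None of these 3 relative intervals, on the brightest probe sets, reached the -0.43 of LARP7 or the 0.53 of CCNT2. The per-cell interval of CDK12 was wider, from -0.74 to 0.23. The CDK12 probe sets did not give 1 direction and none passed. Relative changes were -0.28 on 11739636_s_at (adjusted p = 0.0652), -0.26 on 11739639_at (adjusted p = 0.0600), 0.14 on 11739637_a_at (adjusted p = 0.231) and 0.23 on 11751936_a_at (not tested).

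Per cell, 1 of 9 members passed as lower with THZ1 and 0 as higher, where 10.0% of all tested genes were lower and 0.0753% higher. At an unadjusted p under 0.05, 2 members were lower per cell, MEPCE and LARP7, and 0 higher. The share of all genes at that unadjusted threshold was not counted. Relative to the median gene, 4 members were lower (MEPCE, LARP7, HEXIM1 and CDK9) and 1 higher (CCNT2), against 21.1% lower and 17.7% higher among all genes. The member median was -0.25 per cell and -0.06 relative, beside -0.16 and 0.037 for all genes. In signal, the THZ1 arrays were both below the DMSO arrays for 4 of 9 members and both above for 0, where 30.0% and 0.871% of all genes showed this. The relative counts were 4 below and 2 above, against 32.0% and 38.0% of all genes. Of the 6 P-TEFb and 7SK genes, 5 passed on the relative scale, and of the 3 genes of the CDK12 and CDK13 group 0 did, also at an unadjusted p under 0.05. Whether these groups differ was not tested. Counted over probe sets, 3 of 25 were lower per cell and 0 higher (7.19% and 0.114% of all tested probe sets), and 8 were lower and 3 higher on the relative scale (16.9% and 18.4%). The number of members called depended on the array left out, and the share of all genes called in those fits is not given. Relative changes there ran from -1.32 to -1.27 for MEPCE, from -0.52 to -0.35 for LARP7 and from -0.28 to -0.22 for HEXIM1. They ran from -0.24 to -0.18 for CDK9 and from 0.49 to 0.57 for CCNT2.

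With siMITF the members moved with the bulk of genes, and CDK12 and CDK13 were the only members called against the median gene, in opposite directions. Per cell, 6 of 9 members were lower and 0 higher, where 63.4% of all tested genes were lower and 0.326% higher, so this count is near the background. The member median was -0.71 against -0.63 for all genes. Relative to the median gene, 1 member was lower and 1 higher, against 24.7% and 19.5% of all genes, and the member median was -0.08 against 0.0014. With each gene's own variance, 0 of the 11947 genes passed per cell, so the members' adjusted p of 0.0893 to 0.108 for those 6 genes say nothing of them in particular. In that test 4 of 9 members had an unadjusted p under 0.05, beside 5705 of the 11947 genes.

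CDK12 had signals of 218 and 278 with siCtrl and of 125 and 94.9 with siMITF. The siMITF arrays were well below the controls. It fell by 1.07 per cell (SE 0.25, adjusted p = 1.27e-04), a 2.10-fold lower value and the largest per-cell fall of the members in this comparison, and by 0.44 relative (SE 0.074, adjusted p = 0.00121). The relative call was lost when the CDK12 probe sets were averaged (-0.08, adjusted p = 0.380). It was also lost when the 4 siRNA arrays were fitted alone (-0.20, adjusted p = 0.106). That value is near the -0.21 of another CDK12 probe set, 11739639_at, and far from the -0.44 of 11739638_s_at, which stood for the gene. Signals of 11739639_at were 204 and 279 with siCtrl and 150 and 105 with siMITF. They were above those of 11739638_s_at on all siRNA arrays except siCtrl replicate 1. By mean log2 over these 4 arrays 11739639_at was the brightest CDK12 probe set, so that fit read it in place of 11739638_s_at. The change of 11739638_s_at in a fit of these arrays alone was not tested. Among the 5 tested CDK12 probe sets, 11739638_s_at was lower (-0.44), 11739637_a_at was higher (0.27, adjusted p = 0.0254), and the other 3 did not pass.

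CDK13 had signals of 71.5 and 94.0 with siCtrl and of 82.5 and 63.3 with siMITF, which overlapped. It was the member nearest to no change per cell (-0.15, SE 0.25, adjusted p = 0.563). After centring, its log2 levels were 6.51 and 6.59 with siCtrl and 7.05 and 7.02 with siMITF, a rise of 0.48 (SE 0.080, adjusted p = 0.00114). The second tested CDK13 probe set rose as well, by 0.37 (adjusted p = 0.0144). The calls for CDK12 and CDK13 were made in all 8 fits that left out 1 array.

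CCNK had signals of 410.4 and 534 with siCtrl and of 302 and 246 with siMITF, a per-cell fall of 0.75 (adjusted p = 0.00647) that was -0.11 relative (adjusted p = 0.259). CDK9 had signals of 240.2 and 302 with siCtrl and of 171 and 146.5 with siMITF, a per-cell fall of 0.71 (adjusted p = 0.00933) and a relative change of -0.08 (adjusted p = 0.395). CCNT2 had signals of 64.1 and 74.4 with siCtrl and of 42.7 and 34.0 with siMITF, a per-cell fall of 0.65 (adjusted p = 0.0166) and a relative change of -0.02 (adjusted p = 0.850). For these 3 genes both siMITF arrays were below both siCtrl arrays, and the fall was close to that of the median gene.

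Of the 7SK genes, MEPCE and LARP7 fell per cell and did not pass against the median gene. MEPCE had signals of 539.5 and 654 with siCtrl and of 398 and 308 with siMITF, a per-cell fall of 0.74 (adjusted p = 0.00720) and a relative change of -0.10 (adjusted p = 0.257). LARP7 had signals of 307 and 414 with siCtrl and of 223 and 164 with siMITF, a per-cell fall of 0.84 (adjusted p = 0.00219) and a relative change of -0.21 (adjusted p = 0.101). Against the median gene both passed as lower with a pseudocount of 64 (LARP7 -0.26, adjusted p = 0.0215, and MEPCE -0.20, adjusted p = 0.0343). LARP7 also passed with no filter (-0.39, adjusted p = 0.0180), and MEPCE when genes were averaged over their probe sets (-0.18, adjusted p = 0.0493). MEPCE has 1 probe set, so averaging left its own signals as they were and changed the centring of the arrays. HEXIM1 had signals of 571 and 701 with siCtrl and of 530.3 and 396 with siMITF, changes of -0.45 per cell (adjusted p = 0.0893) and 0.18 relative (adjusted p = 0.0719), neither of which passed. CCNT1, with the E-box in its promoter window, had signals of 110 and 124 with siCtrl and of 92.4 and 77.1 with siMITF, changes of -0.40 per cell (adjusted p = 0.127) and 0.23 relative (adjusted p = 0.167).

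In signal, both siMITF arrays were below both siCtrl arrays for 8 of the 9 members, the exception being CDK13, and 89.0% of all tested genes showed this, while 0.929% lay above. After centring, 5 members were below and 3 above, against 38.0% and 35.3% of all genes. Over probe sets, 18 of 25 were lower per cell and 0 higher (65.1% and 0.294% of all tested probe sets), and 1 was lower and 3 higher on the relative scale (25.0% and 18.5%). The number of members called per cell depended on the array left out, and the share of all genes called in those fits is not given. The per-cell changes of those 6 members stayed below 0 there. They ran from -1.24 to -0.90 for CDK12, from -1.05 to -0.64 for LARP7 and from -0.77 to -0.54 for CCNT2. Offsets shared by most genes enter these changes.

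**Figure D3:**
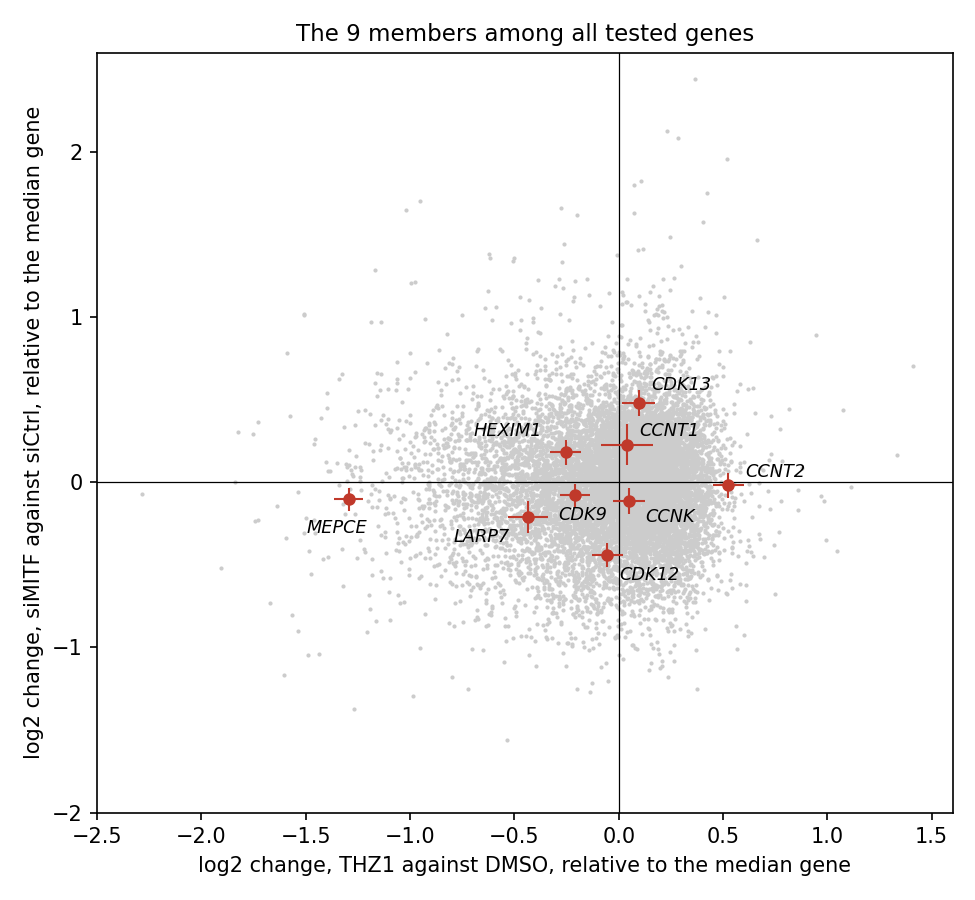
Relative log2 change with THZ1 against DMSO (horizontal axis) and with siMITF against siCtrl (vertical axis) for all 11947 tested genes in grey and the 9 members in red with their names, with bars of 1 SE. MEPCE stands far to the left at -1.30 with little change after siMITF (-0.10), CCNT2 lies to the right at 0.53, and CDK12 (-0.44) and CDK13 (0.48) lie apart on the vertical axis.

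The difference between the THZ1 change and the siMITF change was tested directly, and the pairs of groups share no array. On the relative scale 3 members had a lower and 2 a higher change with THZ1 than with siMITF, against 20.2% and 21.4% of all genes. MEPCE differed by -1.19 (SE 0.099, adjusted p = 3.44e-05), CCNT2 by 0.55 (SE 0.10, adjusted p = 0.00233) and CDK12 by 0.38 (SE 0.10, adjusted p = 0.0140). HEXIM1 differed by -0.44 (adjusted p = 0.00798) on its brightest probe set and by 0.07 (adjusted p = 0.582) when its probe sets were averaged, and CDK13 by -0.39 (adjusted p = 0.0196). The CDK12 difference was also lost on averaging probe sets (0.02, adjusted p = 0.895), that of CDK13 with its own variance (adjusted p = 0.0550) and those of CDK13 and HEXIM1 with no filter (adjusted p = 0.296 and 0.223). Per cell, CCNT2 alone passed, with a difference of 0.98 (SE 0.35, adjusted p = 0.0469), where 9.84% of genes had a higher and 0.946% a lower change. The number of members called per cell depended on the array left out, and the share of all genes called in those fits is not given. The CCNT2 difference ran from 0.74 to 1.22 there and did not pass in most of them.

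Over the 8 arrays, CCNT2 and MEPCE had opposite relative profiles (Pearson r = -0.97), and CDK9 and MEPCE similar ones (r = 0.92). CDK12 and CDK13 ran opposite to each other (r = -0.75), and CDK12 and CCNK had r = 0.56. Over 11934 other genes, the profiles most like that of CDK9 were XRCC2 (r = 0.983), AEN (r = 0.983) and WAPL (r = 0.982). For CDK12 they were SMC2 (r = 0.995), PGM2 (r = 0.988) and SPC25 (r = 0.987), and for HEXIM1 on its brightest probe set IFI16 (r = 0.989), GSAP (r = 0.989) and GSPT2 (r = 0.987). Differences in level between the drug and siRNA sets enter each of these correlations. For HEXIM1 the mean relative log2 level was 10.02 with DMSO and 9.77 with THZ1, and 9.28 with siCtrl and 9.46 with siMITF. The correlations are descriptions over arrays that share 4 treatments, and carry no test.

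The factors that act beside the members were read from a list of 31 pausing and elongation genes, of which 28 were tested. Per cell with THZ1, 2 of the 28 were lower and 0 higher, where 10.0% of all tested genes were lower and 0.0753% higher. At an unadjusted p under 0.05, 7 of the 28 were lower. The share of all genes at that looser threshold was not counted, so this is not set against the 10.0%. HEXIM2, the paralogue of HEXIM1 that also inhibits P-TEFb on 7SK, had signals of 179.8 and 243 with DMSO and of 58.4 and 67.1 with THZ1. It fell by 1.52 (adjusted p = 1.69e-07), next to the fall of 1.49 in MEPCE. JMJD6, an enzyme reported to help release paused polymerase, had signals of 732 and 1010 with DMSO and of 264 and 370.2 with THZ1, a fall of 1.41 (adjusted p = 1.36e-06). A second JMJD6 probe set, below the filter, had a relative change of 0.34. On the relative scale 8 of the 28 were lower and 4 higher, with a median of 0.023, against the 21.1% and 17.7% of all genes. Those lower included NELFA, a subunit of the pausing complex NELF, at -0.48 (adjusted p = 0.00455) and IWS1, which travels with the elongating polymerase, at -0.46 (adjusted p = 0.00430).

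With siMITF, 19 of the 28 were lower per cell and none higher, near the 63.4% of all genes, and 10 were lower and 5 higher on the relative scale, against 24.7% and 19.5%. JMJD6 fell by 1.05 per cell (adjusted p = 1.62e-04) and by 0.42 relative (adjusted p = 0.00192). PAF1, the scaffold of the PAF elongation complex, fell by 1.01 per cell (adjusted p = 2.99e-04) and by 0.38 relative (adjusted p = 0.00393), and TCEA1, which rescues backtracked polymerase, fell by 0.37 relative (adjusted p = 0.00294). HEXIM2 had signals of 124 and 173 in the siCtrl group against 129 and 105 in the siMITF group, which overlapped.

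Of 11 other transcription kinases and cyclins, all tested, 0 passed per cell with THZ1, where 10.0% of all genes were lower. At an unadjusted p under 0.05, 2 were lower, and the share of all genes there was not counted. Relative to the median gene, 1 was lower and 2 higher, against 21.1% and 17.7% of all genes. CDK7, the target of THZ1, had signals of 395 and 493 with DMSO and of 251 and 323 with THZ1, a relative fall of 0.41 (adjusted p = 0.00148) and a per-cell change of -0.60 (adjusted p = 0.105). CCNL2, the cyclin L2 partner of CDK11, rose by 0.49 relative (adjusted p = 7.02e-04), close to the 0.53 of CCNT2. With siMITF, 9 of the 11 were lower per cell and none higher, where 63.4% of all genes were lower, and 1 was lower and 2 higher on the relative scale, against 24.7% and 19.5%.

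Of 8 DNA damage response genes chosen for their reported link to CDK12 or its repair pathways, 6 were tested. With THZ1 0 passed per cell, against 10.0% of all genes lower. At an unadjusted p under 0.05, 2 were lower per cell, and the share of all genes there was not counted. On the relative scale 2 were lower, against 21.1% of all genes. They were BRCA1 by 0.46 (adjusted p = 0.0136) and RAD51C by 0.42 (adjusted p = 0.00164). CDK12 itself changed by -0.06 there. With siMITF, 5 of the 6 were lower per cell and 4 on the relative scale, where 63.4% and 24.7% of all genes were. CDK12 was lower there on its brightest probe set and did not pass on averaged probe sets (relative change -0.08, limma adjusted p = 0.380). FANCI, which works in DNA crosslink repair, fell by 0.78 (adjusted p = 9.58e-05), the checkpoint kinase CHEK1 by 0.67 (adjusted p = 1.90e-04), BRCA1 by 0.59 (adjusted p = 0.00347) and RAD51C by 0.37 (adjusted p = 0.00282), all relative to the median gene. Any link between the changes of these genes and that of CDK12 was not tested. NELFE, ELL3, BRCA2 and FANCD2 were not analysed here.

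**Figure D4:**
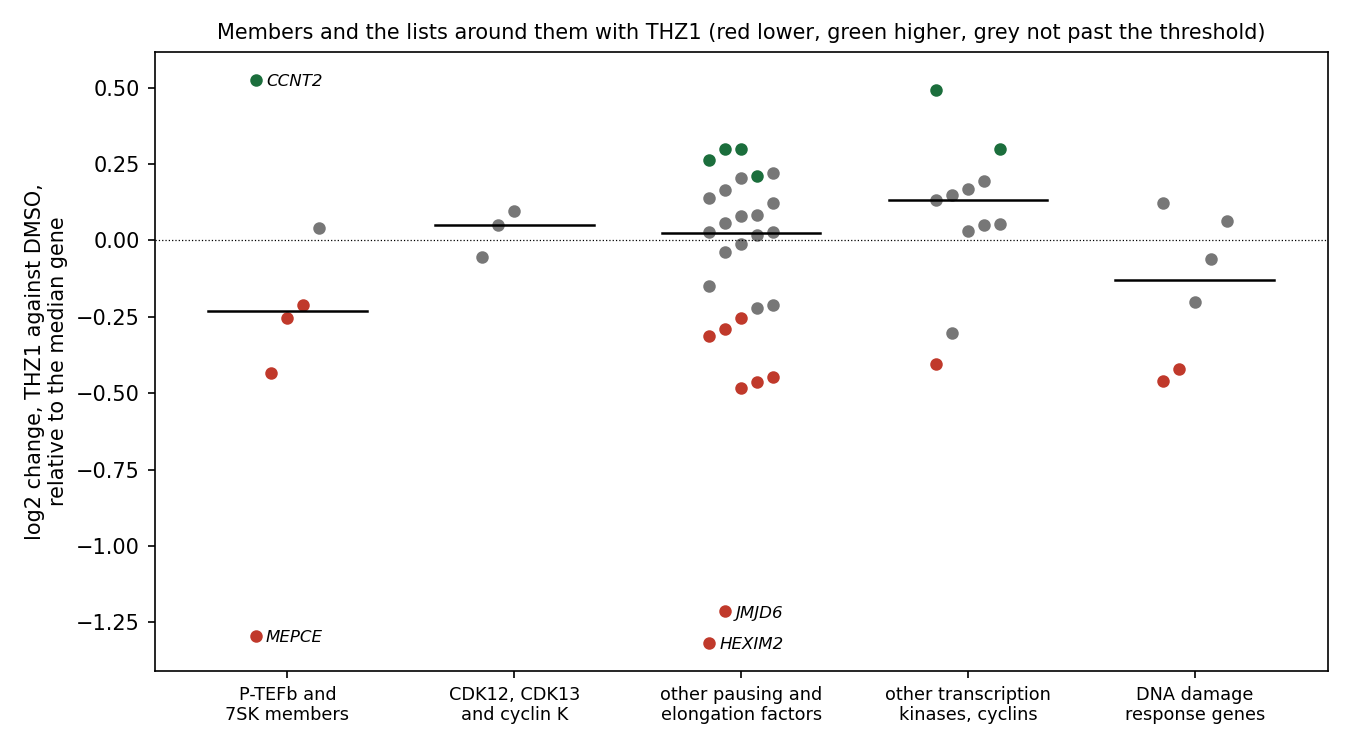
Relative log2 change with THZ1 against DMSO of the members and of the genes of the other lists, 1 point per tested gene, with a bar at the median of each list. HEXIM2 (-1.32), MEPCE (-1.30) and JMJD6 (-1.21) lie lowest, and CCNT2 (0.53) is the highest member.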

How the data were processed

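The deposited values are array intensities on a linear scale, 1 per probe set, summarised by the authors with MAS5 per the submitters' processing notes, with no version given. Each array took 100 ng of RNA, with ERCC spike-in RNA scaled to the number of cells, per the labels' protocols. Normalization to cell number is stated in the series' design text, without its calculation. Of 49495 probe sets, 45278 had 1 symbol (45208 matched RefSeq by gene ID), 1333 several, 2682 none, and 100 were ERCC and 102 other controls.

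Values were analysed as log2(signal + 16). A gene was its brightest probe set with 1 symbol, and was tested if that probe set's mean log2 was at or above the 40th percentile, which kept 11947 of 18244 genes. The comparisons used limma 3.58.1 (R 4.3.3) on all 8 arrays with a mean for each group. Benjamini-Hochberg adjustment ran over all tested genes at 0.05. The fit was tested on simulated data for THZ1 against DMSO on the relative scale only. That simulation had independent noise per gene and no offset shared by the genes of an array, so it does not cover the per-cell scale. Per cell, limma's prior was infinite, so every gene had the same SE and small p-values overstate the evidence. On the relative scale (from each array the median deviation of its genes was subtracted) limma's prior had 5.97 degrees of freedom and the residuals 4. That scale was first chosen with the data in view.

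Members, lists and the rule for named genes (list members with the 4 lowest per-cell adjusted p, and the 3 genes most like CDK9, CDK12 and HEXIM1) were chosen with earlier results of these data known. MLLT3, MLLT1 and the genes of the promoter windows were chosen after their values were seen. Nothing in the labels says that replicate arrays are separate cultures, so the p-values reflect the spread between these arrays, which may be technical. Only 2 arrays per group limit the precision. Alternatives were the pseudocount, filter, probe set average, normalization, variance, each array left out and a replicate block.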

Additional observations from a re-analysis of the deposited data

How the results depend on the processing

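On the relative scale, calls of the same direction were kept by MEPCE and CCNT2 with THZ1 and by CDK13 with siMITF in every alternative that tested them. The relative differences of MEPCE and CCNT2 between the 2 comparisons were kept in the same way. Members called were, per cell with THZ1 (1), 2 with averaged probe sets, 4 with quantile normalization and 0 with own variances. With siMITF per cell (6) own variances gave 0. For the difference per cell (1) a pseudocount of 64, a 60th percentile filter, ERCC scaling over all spike-ins and own variances each gave 0, and quantile normalization gave 6. On the relative scale, THZ1 (5) and the difference (5) each gave 3 with no filter, and siMITF (2) gave 4 with a pseudocount of 64, a 60th percentile filter or quantile normalization. With own variances per cell, 0 of the 11947 genes passed in each comparison. For the other alternatives, and the fits that left out 1 array, the share of all genes called is not given. These counts show how far the calls depend on processing, and are not results about the members. Leaving out each array gave, per cell, 1 to 2 members with THZ1, 1 to 6 with siMITF and 0 to 3 for the difference, and relative, 2 to 5, 2 to 2 and 4 to 5.

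Gene by gene, the deviations of same-numbered arrays correlated at 0.112 in the drug arrays and -0.184 in the siRNA arrays, which shows little pairing. Such a correlation cannot see offsets shared by all genes, which the per-cell scale keeps. The log2 offsets of replicates 1 and 2 were 0.21 and 0.51 with DMSO and -0.04 and 0.37 with THZ1. They were -0.06 and 0.19 with siCtrl and -0.43 and -0.71 with siMITF. With the replicate block, members called were 1, 6 and 1 per cell and 4, 2 and 5 relative, for THZ1, siMITF and the difference, with CDK9 the member that no longer passed with THZ1 on the relative scale (-0.21, adjusted p = 0.0545). A crossed pairing of the siRNA arrays, added after seeing the data, gave 8 per cell and 2 relative. The share of all genes called in these block fits is not given, so the 8 is not a result about the members.

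Quantile normalization, which removes the per-cell scale by construction, turned these per-cell changes. With THZ1 they became 0.089 for CCNT1, 0.011 for CDK12, 0.12 for CDK13 and 0.029 for CCNK. With siMITF they became 0.11 for CDK9, 0.26 for CCNT1, 0.46 for CDK13, 0.15 for CCNK, 0.47 for HEXIM1, 0.0092 for LARP7 and 0.17 for MEPCE. The difference became -0.25 for CDK9, -0.17 for CCNT1, -0.34 for CDK13, -0.12 for CCNK and -0.36 for LARP7. On the relative scale it turned CDK12 with THZ1 (0.016), CDK9 (0.090), CCNK (0.13) and MEPCE (0.16) with siMITF, and the CCNK difference (-0.10). Averaged probe sets turned HEXIM1 (THZ1 0.064, siMITF -0.0077, difference 0.072 relative and 0.46 per cell) and CCNT2 with siMITF (0.14, relative). Averaging also changes the centring of the arrays, which enters the relative changes. No filter turned the relative changes of CCNT1 (-0.010) and CCNK (-6.15e-04) with THZ1, HEXIM1 (-0.00128) with siMITF and the CDK9 difference (6.25e-04). The 60th percentile filter turned CDK9 (0.025) and a pseudocount of 64 turned CCNT2 (0.081), both relative with siMITF. The per-cell HEXIM1 difference, near 0, turned with a pseudocount of 1 (0.0046) and with scaling to bright ERCC probe sets (0.069), an alternative added after seeing the data.

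Leaving out single arrays turned changes that had not passed the test. With THZ1, CCNT1 ran from -0.57 to 0.25 per cell and from -0.17 to 0.25 relative, CCNK from -0.42 to 0.12 and from -0.017 to 0.12, and CDK13 from -0.25 to 0.044 per cell. With siMITF, CDK13 ran from -0.32 to 0.014 per cell and CCNT2 from -0.056 to 0.016 relative. The difference ran from -0.17 to 0.66 per cell and from -0.41 to 0.020 relative for CCNT1, and per cell from -0.12 to 0.21 for CDK13 and from -0.22 to 0.21 for HEXIM1. The causes of the turns in this section were not tested.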

Other observations

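MLLT3 (AF9), which recruits the super elongation complex to chromatin, was singled out after its values were seen. Its signals were 37.4 and 51.0 with siCtrl and 58.6 and 42.5 with siMITF, so the groups overlapped, close to the filter at 39.2. Relative to the median gene, which changed by -0.63 per cell with siMITF, it rose by 0.78 (limma, adjusted p = 6.34e-05). Its paralogue MLLT1 (ENL), of the same complex, had a relative change of 0.05 with siMITF (adjusted p = 0.696) and fell by 0.45 with THZ1 (adjusted p = 0.00610). The change with THZ1 minus the change with siMITF was -0.57 for MLLT3 (adjusted p = 0.00210) and -0.50 for MLLT1 (adjusted p = 0.0165). Cyclin L2 (CCNL2) rose with both treatments on the relative scale, by 0.49 with THZ1 and by 0.35 with siMITF (adjusted p = 0.00418), and the changes did not differ by the test of the difference (0.14, adjusted p = 0.304).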
